A study of Mus musculus with 2 samples.

Results

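Pax6, Emx1, Emx2, Lhx2, Nr2f1, Dmrta2 and Dmrt3, 7 genes for transcription factors that pattern the pallium, were followed through single cells of the embryonic mouse dorsal telencephalon. They were taken by their symbols from the 32285 genes of the deposited tables, and all 7 passed the filter on low counts in every fit. The pallium is the dorsal part of the telencephalon, from which the cerebral cortex and the hippocampus form. Its radial glial cells (RGCs) divide at the ventricle and give rise to intermediate progenitor cells (IPCs) and to excitatory neurons. The 7 factors are known for graded expression in cortical progenitors, where their balance sets the position and size of cortical areas. Pax6 is known to be high rostrolaterally, Emx2 and the Dmrt genes caudomedially and Nr2f1 caudally, while Lhx2 keeps cells cortical at the border with the hem, the dorsomedial signalling centre.

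The data were single-cell RNA profiles of 2 libraries of 1 group, wild type (WT), taken from dissected dorsal telencephalon of C57BL/6J mice at embryonic day 14.5 and named replicate 2 and replicate 4 after their titles. The titles also carry the term EomesDot, which the labels do not explain. The labels list no sex and do not say whether a library pools embryos, and both libraries share the genotype, so that only cell classes within libraries could be compared. Replicate 2 held 40267872 unique molecular identifiers (UMIs, tags that each mark 1 captured transcript) in 1712 barcodes and replicate 4 held 49422007 in 2589.

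After filtering, 1199 and 1923 cells were kept, with medians of 30810 and 22826 UMIs per cell, and the libraries shared 3 barcodes, 1 of them among kept cells. Clustering left out the 7 genes and 54 further patterning genes, and classes were named from marker genes, with the suffix -like because the names rest on markers alone. The 4 clusters called RGC-like (266 and 446 cells in replicates 2 and 4) raised 10 to 12 of 12 RGC markers. The IPC-like class held 118 and 167 cells, the excitatory neuron-like class 469 and 677, the Cajal-Retzius-like class 16 and 24, the hem or choroid plexus-like class 33 and 22 and the MGE interneuron-like class 54 and 99, MGE being the medial ganglionic eminence of the subpallium. A further 118 and 245 cells sat in clusters that raised markers of both IPCs and neurons and are given as a class of their own, by level only. The label of dorsal tissue held for most cells, although GABAergic neuron-like cells of subpallial type were present too. Levels are UMIs summed over the cells of a class within a library and scaled to a class total of 1000000 (CPM), given for replicate 2 first and replicate 4 second.

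The promoters of Emx1 and Emx2 are shown with that of Pax6, the classic radial glial factor among the 7. Emx1 and Emx2 were the 2 of 7 genes called by edgeR between RGC-like and IPC-like cells, where 26.6% of all genes were called. The Emx2 call held in 8 of 14 alternative processings. The sequences are the 250 bases before the gene start in RefSeq's annotation of GRCm38.p6, on the plus strand, and capitals mark every CCAAT (the CCAAT box) and CANNTG (the E-box, bound by proneural factors) on either strand. The Pax6 stretch lies at chr2:105668646-105668895, that of Emx1 at chr6:85187681-85187930 and that of Emx2 at chr19:59458440-59458689, each directly upstream of the first exon.
Pax6: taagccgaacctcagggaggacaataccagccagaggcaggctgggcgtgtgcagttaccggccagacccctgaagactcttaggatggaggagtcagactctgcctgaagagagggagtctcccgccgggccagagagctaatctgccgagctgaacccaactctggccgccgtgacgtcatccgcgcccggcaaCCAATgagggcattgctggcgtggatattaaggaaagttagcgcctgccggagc
Emx1: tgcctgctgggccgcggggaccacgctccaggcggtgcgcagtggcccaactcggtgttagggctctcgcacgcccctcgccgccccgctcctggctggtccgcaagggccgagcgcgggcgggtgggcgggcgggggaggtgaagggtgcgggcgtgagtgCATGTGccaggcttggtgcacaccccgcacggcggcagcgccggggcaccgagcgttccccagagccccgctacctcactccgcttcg
Emx2: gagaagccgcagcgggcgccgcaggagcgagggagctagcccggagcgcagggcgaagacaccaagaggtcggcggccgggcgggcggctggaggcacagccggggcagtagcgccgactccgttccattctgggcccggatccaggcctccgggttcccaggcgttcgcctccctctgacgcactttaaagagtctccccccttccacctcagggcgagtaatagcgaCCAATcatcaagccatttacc
The Pax6 and Emx2 stretches each held 1 CCAAT and no CANNTG, and the Emx1 stretch held 1 CANNTG and no CCAAT. A second Pax6 start window, at chr2:105682213-105682462 and not shown, held 1 CANNTG and no CCAAT, with a GC content of 47.6%. RefSeq's table matched all 7 genes with 10 start windows, of which 4 held the CCAAT box, 4 held the GC box GGGCGG, 5 held the E-box, 0 held the TATA box TATAAA and 0 held the homeodomain core TAATTA. Over 32851 windows of the same length in the table, the CCAAT box was found in 33.85%, the GC box in 32.74%, the E-box in 66.22%, the TATA box in 12.37% and the homeodomain core in 4.84%. GC content was 60.8% for the Pax6 stretch, 75.6% for Emx1 and 67.2% for Emx2, against a median of 52.4%. These are matches of letters and no test of binding was made.

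Radial glia carried all 7 genes. The RGC-like level of Pax6 was 219.8 and 193.1 CPM, that of Lhx2 484.5 and 505.6, that of Nr2f1 315.9 and 314.8 and that of Emx2 103.7 and 106.5. Emx1 stood at 78.3 and 86.5 CPM in RGC-like cells, Dmrta2 at 66.8 and 70.6 and Dmrt3 at 25.1 and 24.7. The libraries thus lay close together for every gene, with Pax6 the gene furthest apart. To compare shares of cells at equal depth, each cell was thinned to 5000 UMIs, which left out 17 and 31 shallower RGC-like cells. At that depth 59.9% ± 1.19 (SD, n = 2 libraries) of RGC-like cells held a Pax6 UMI, 81.2% ± 1.31 an Lhx2 UMI, 59.4% ± 3.29 an Nr2f1 UMI and 11.2% ± 2.90 a Dmrt3 UMI. An RGC-like cell held UMIs of 3.12 and 3.15 of the 7 genes on average at 5000 UMIs, an IPC-like cell of 3.11 and 2.96, an excitatory neuron-like cell of 1.32 and 1.39 and an MGE interneuron-like cell of 0.623 and 0.722. Endothelial-like cells, which should lack these genes, gave a background of 0 to 20.4 CPM over the 7 genes in replicate 2 (9 cells, median 16901 UMIs) and 0 to 5.12 in replicate 4 (18 cells).

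**Figure D1:**
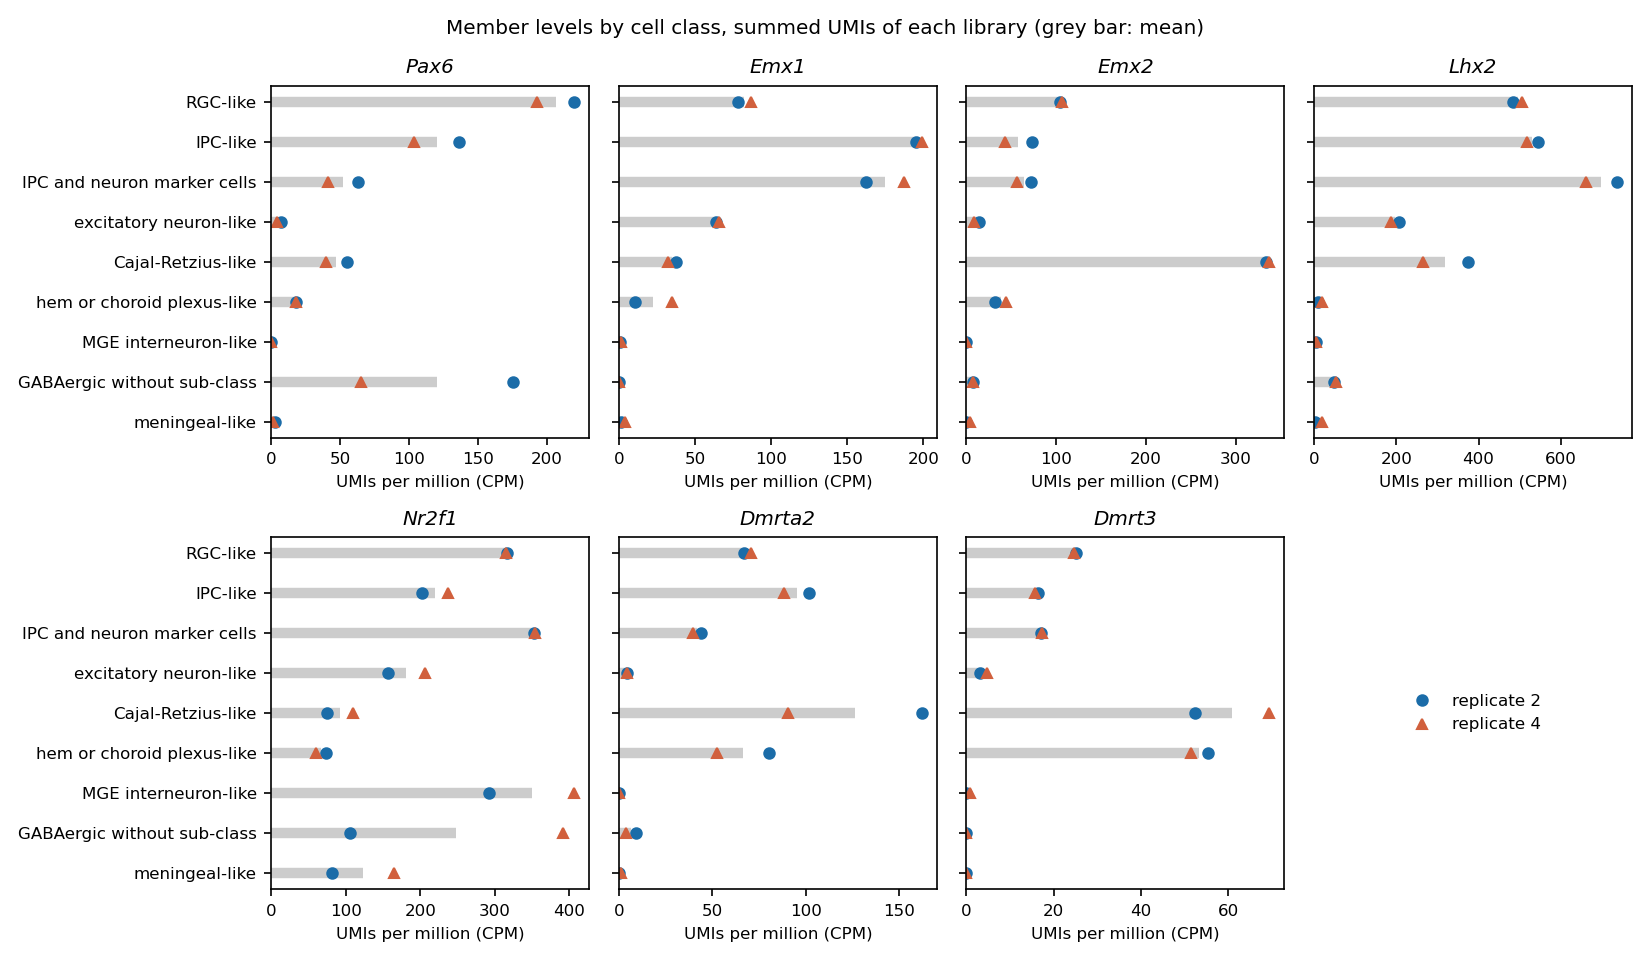
Levels of the 7 genes (x axis, CPM) in 9 cell classes, with circles for replicate 2, triangles for replicate 4 and grey bars for the mean of both libraries. Pax6 was highest in RGC-like cells (219.8 and 193.1 CPM), Emx1 in IPC-like cells (195.2 and 198.8) and Emx2 in Cajal-Retzius-like cells (333.9 and 337.1).

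Whether the factors differ between radial glia and the intermediate progenitors was asked next. Emx1, a homeobox gene of pallial progenitors and their neurons, was higher in IPC-like cells, at 195.2 and 198.8 CPM against 78.3 and 86.5 in RGC-like cells. Its paralogue Emx2 went the other way, with 103.7 and 106.5 CPM in RGC-like against 72.7 and 42.9 in IPC-like cells. The fitted log2 fold change, RGC-like over IPC-like, was -1.31 ± 0.23 (SE) for Emx1 (adjusted p = 0.00109) and 0.81 ± 0.28 for Emx2 (adjusted p = 0.0453, edgeR's quasi-likelihood test with Benjamini-Hochberg adjustment). The remaining 5 genes did not pass: Pax6 stood at 0.73 ± 0.32 (adjusted p = 0.114), Dmrt3 at 0.58 ± 0.23 (adjusted p = 0.0800), Dmrta2 at -0.53 ± 0.23 (adjusted p = 0.111), Nr2f1 at 0.46 ± 0.41 (adjusted p = 0.445) and Lhx2 at -0.16 ± 0.30 (adjusted p = 0.743). Thus 2 of 7 were called, where 26.6% of the 13102 genes tested were. The Emx1 call held in 14 of 14 alternative processings, and the Emx2 call in 8 of 14 with adjusted p from 0.00242 to 0.466 and its direction kept in all 14. With the library as a replicate block Pax6 passed as well (adjusted p = 0.0129). The larger IPC-like cluster itself raised 6 of 12 RGC markers beside 7 of 7 IPC markers, and the smaller one (29 and 66 cells, led by Top2a and Mki67) raised 5 of 9 neuron markers beside 6 of 7 IPC markers. The part of this in the differences was not tested.

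The other patterning genes were described by list for the same pair of classes. Of 9 Fgf and Wnt response genes, 7 were higher in RGC-like cells and none lower, among them Etv5, an Fgf target (log2 fold change 2.67 ± 0.31), Etv4 (2.96 ± 0.90, from 2 and 4 UMIs in IPC-like cells) and the receptor Fgfr3 (1.82 ± 0.33). Of 12 other patterning factors 11 were tested, and 4 were higher (Tcf7l2, Tcf7l1, Gli3 and Lef1, mediators of Wnt and Hedgehog signalling) with none lower. Pax6os1 and Emx2os, noncoding genes beside Pax6 and Emx2, were both higher in RGC-like cells (1.79 ± 0.32 and 1.06 ± 0.30). Of 9 tested signals of the patterning centres 4 were higher and 2 lower (Wnt7b and Nrg1), and of 8 area factors of postmitotic neurons 1 was higher (Lmo3) and 3 lower (Cdh8, Bhlhe22 and Id2). Of the 13102 genes tested, 1942 were higher in RGC-like cells and 1544 lower.

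Between IPC-like cells and excitatory neuron-like cells most of the 7 genes dropped. Dmrta2, a doublesex-related factor of caudomedial progenitors, stood at 101.8 and 88.4 CPM in IPC-like cells and at 4.13 and 4.28 in neurons. Pax6 stood at 136.6 and 103.3 against 7.31 and 4.28 CPM. In log2 terms, IPC-like over neuron-like, Dmrta2 differed by 4.25 ± 0.27, Pax6 by 4.13 ± 0.37, Emx2 by 2.07 ± 0.29, Dmrt3 by 1.77 ± 0.25, Emx1 by 1.36 ± 0.23 and Lhx2 by 1.19 ± 0.30, with adjusted p from 1.38e-07 to 0.00548 (edgeR). So 6 of 7 were called, all higher in IPC-like cells, against 41.9% of all genes called in either direction, and the median log2 fold change was 1.77 for the 7 genes and -0.08 for all genes. Nr2f1, a nuclear receptor that acts in progenitors and in postmitotic neurons, did not pass (0.03 ± 0.41, adjusted p = 0.964) and its libraries overlapped, with 202.2 and 236.8 CPM in IPC-like cells and 156.0 and 206.7 in neurons. The Lhx2 call was lost when called doublets were kept (adjusted p = 0.0873) and held in 13 of 14 alternatives.

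Cells with markers of both IPCs and neurons had the highest Lhx2 level of the classes, at 736.5 and 660.4 CPM, against 544.5 and 517.8 in IPC-like cells and 206.8 and 187.5 in excitatory neuron-like cells. Pax6 in them was at 63.2 and 41.0 CPM and Dmrta2 at 43.9 and 39.4, between the IPC-like and the neuron-like levels. Nr2f1 was at 352.0 and 353.8 and Emx1 at 162.5 and 187.0. These levels were not tested, because the class was set up after its clusters had been seen.

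Radial glia set against excitatory neurons directly gave 5 calls of 7, all higher in RGC-like cells, where 55.4% of all genes were called. The log2 fold change was 4.85 ± 0.38 for Pax6, 3.72 ± 0.26 for Dmrta2, 2.88 ± 0.29 for Emx2, 2.35 ± 0.23 for Dmrt3 and 1.03 ± 0.30 for Lhx2, with edgeR's adjusted p from 9.76e-08 to 0.00924. The Lhx2 call held in 11 of 14 alternatives, with adjusted p up to 0.140. Emx1 (0.05 ± 0.23, adjusted p = 0.876) and Nr2f1 (0.50 ± 0.41, adjusted p = 0.321) did not pass. Emx1 thus had its highest level in the IPC-like class, with 78.3 and 86.5 CPM in RGC-like cells and 63.8 and 65.7 in neurons. RGC-like cells held 23.0% and 25.2% of all UMIs of kept cells but 64.3% and 70.5% of the Pax6 UMIs, 48.3% and 56.1% of those of Emx2 and 21.9% and 24.2% of those of Emx1.

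**Figure D2:**
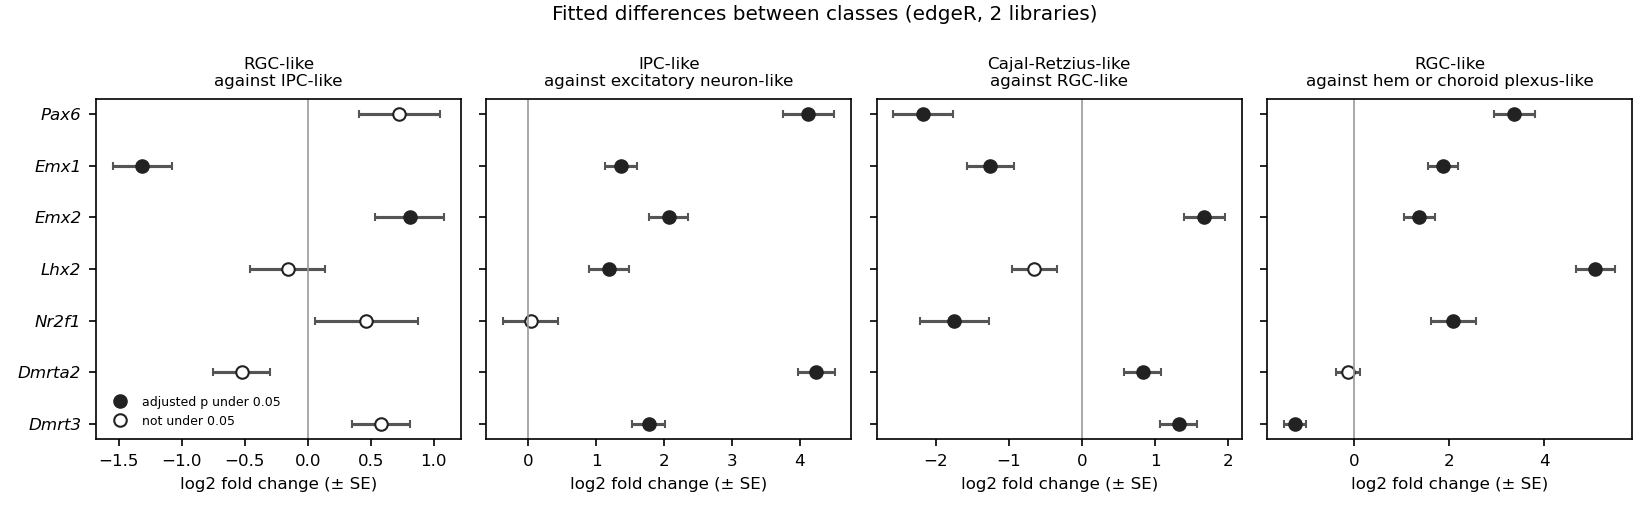
Fitted log2 fold changes (x axis) of the 7 genes in 4 comparisons of classes, with bars for the SE and filled points for adjusted p under 0.05 in edgeR's fit of 2 libraries. Emx1 and Emx2 lay on opposite sides of 0 for RGC-like against IPC-like cells (-1.31 and 0.81), and Emx2, Dmrta2 and Dmrt3 lay above 0 for Cajal-Retzius-like against RGC-like cells.

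Cajal-Retzius neurons are the early Reln-secreting neurons of the marginal zone, many of them born at the hem. In Cajal-Retzius-like cells Emx2 stood at 333.9 and 337.1 CPM and Dmrt3 at 52.3 and 69.4, both above the other neurons. Dmrta2 stood at 162.0 and 90.7 CPM, with the libraries far apart. Against excitatory neuron-like cells the log2 fold change was 4.55 ± 0.32 for Emx2, 4.55 ± 0.30 for Dmrta2, 3.67 ± 0.28 for Dmrt3 and 2.69 ± 0.48 for Pax6 (edgeR, adjusted p from 6.96e-07 to 0.00167). Emx1 was lower (-1.21 ± 0.32, adjusted p = 0.0204), a call that held in 11 of 13 alternatives with adjusted p up to 0.0546. Nr2f1 (-1.25 ± 0.47, adjusted p = 0.0857) and Lhx2 (0.38 ± 0.31, adjusted p = 0.464) did not pass, and with the library as a block Nr2f1 did (adjusted p = 0.0366). That made 5 of 7 called against 17.7% of all genes. Cajal-Retzius-like cells numbered only 16 and 24, and the Dmrt3 level rests on 21 and 49 UMIs. At a Leiden clustering resolution of 0.5 no cluster got that name, so that setting gave no alternative.

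Set against RGC-like cells, in a comparison added after the levels had been seen, the same neurons had more Emx2 (1.67 ± 0.28, adjusted p = 4.34e-04), Dmrt3 (1.32 ± 0.25, adjusted p = 0.00131) and Dmrta2 (0.83 ± 0.26, adjusted p = 0.0217) in edgeR's fit. They had less Pax6 (-2.17 ± 0.41), Nr2f1 (-1.74 ± 0.47) and Emx1 (-1.25 ± 0.32). Lhx2 did not pass (-0.65 ± 0.31, adjusted p = 0.113). In all 6 of 7 were called against 39.8% of all genes. The Dmrta2 call held in 9 of 13 alternatives, with adjusted p up to 0.226, and the other 5 in 13 of 13. Of the 11 other patterning factors tested, 8 were lower in Cajal-Retzius-like cells and 2 higher, with Nr2f2, a paralogue of Nr2f1, among the latter (4.09 ± 0.82, 868.0 against 51.0 CPM on average).

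The hem and the choroid plexus lie at the dorsomedial edge of the pallium. The class raised 10 of 11 markers of both together, and its leading genes included those of choroid plexus epithelium (Ttr, Htr2c, Kcne2 and Sostdc1, beside Rspo2, a Wnt modulator of the hem), so that its levels cannot be read as those of the hem alone. Lhx2 was at 9.11 and 19.4 CPM there against 484.5 and 505.6 in RGC-like cells, while endothelial-like cells had 20.4 and 2.56 CPM (6 UMIs and 1 UMI). Dmrt3 was higher than in RGC-like cells, with 55.5 and 51.4 CPM in the hem or choroid plexus-like class and 25.1 and 24.7 in RGC-like cells. The log2 fold change, RGC-like over hem or choroid plexus-like, was 5.08 ± 0.42 for Lhx2, 3.37 ± 0.43 for Pax6, 2.09 ± 0.47 for Nr2f1, 1.87 ± 0.32 for Emx1, 1.37 ± 0.33 for Emx2 and -1.24 ± 0.24 for Dmrt3 (edgeR, adjusted p from 5.08e-07 to 0.0042). These 6 calls of 7, against 44.2% of all genes, held in 10 of 10 alternatives. The class could not be tested in the other settings. It was absent with at most 5% mitochondrial UMIs and when only 1 part of the UMIs set the classes. At a Leiden clustering resolution of 2, and with patterning genes kept for clustering, it held 18 and 9 cells, under the minimum of 10 in replicate 4. Emx1 differed between the libraries of the hem or choroid plexus-like class (10.8 and 34.7 CPM), and its log2 fold change was 1.33 without replicate 2 and 2.65 without replicate 4. Dmrta2, at 80.3 and 52.7 CPM, overlapped the RGC-like level and did not pass (-0.12 ± 0.26, adjusted p = 0.735). Of the 9 tested signals of the patterning centres, 5 were higher in that class, among them Wnt8b (158.1 against 9.51 CPM on average) and Wnt5a (69.7 against 4.90), and 4 were lower.

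Interneurons from the MGE arise outside the pallium. In the MGE interneuron-like class no UMI of Pax6, Emx2 or Dmrta2 was found in either library among 54 and 99 cells, 1 and 2 UMIs of Emx1, 0 and 1 of Dmrt3 and 7 and 6 of Lhx2. A count of 0 over the group allows up to 1.16 CPM (3 counts). Against the excitatory neuron-like mean the class was therefore at least 5.01-fold lower for Pax6, 10.1-fold lower for Emx2 and 3.63-fold lower for Dmrta2. Within a single library these bounds are looser, as 3 counts are 2.41 CPM in replicate 2 and 2.23 in replicate 4. The neuron levels were 7.31 and 4.28 CPM for Pax6, 14.4 and 8.84 for Emx2 and 4.13 and 4.28 for Dmrta2. The Emx1 level in neurons was 56.0 times that in the MGE interneuron-like class (95% exact interval 19.1 to 272, counting error only), and that of Dmrt3 10.2 times (1.81 to 407). Lhx2 was lower by 5.40 ± 0.46 on the log2 scale (adjusted p = 1.61e-06, edgeR). Nr2f1 alone of the 7 was found at high level in interneurons, at 292.3 and 406.2 CPM against 156.0 and 206.7 in excitatory neurons (0.83 ± 0.42, adjusted p = 0.193). edgeR called 6 of 7 lower, against 20.3% of all genes in either direction, with a median log2 fold change of -5.89 as fitted and -3.33 with the genes at 0 set to their bounds.

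Some of these interneuron calls were lost under other settings. Pax6 and Dmrta2 kept their calls in 10 of 14 alternatives, and Emx2 and Dmrt3 in 12 of 14. With the UMIs of each cell split, so that 1 part set the classes and the other gave the test, 3 of 7 were called and the fitted value turned for Pax6 (0.34, adjusted p = 0.871) and Dmrta2 (0.86, adjusted p = 0.481). With at most 5% mitochondrial UMIs 3 of 7 were called too, and Pax6 turned to 0.66 (adjusted p = 0.337). Emx2 lost its call in both settings, with -0.89 (adjusted p = 0.4535) in the split. The calls of Emx1 and Lhx2 held in 14 of 14 alternatives, but their log2 values reached -3.76 for Emx1 (-5.89 as reported) with at most 5% mitochondrial UMIs and -2.29 for Lhx2 (-5.40 as reported) in the split. The fitted log2 value of Dmrt3 was -2.71 without replicate 2 and -4.84 without replicate 4, and those of the 3 genes at 0 also moved when either library was left out, as their values depend on the prior count.

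Single clusters showed how far the genes vary inside the classes. In radial glia, the cluster led by Tmem132c and Gabrb1 (29 and 49 cells) had 178 and 182 CPM of Emx2, where the other 3 clusters had 62.3 to 116. The same cluster had 624 and 716 CPM of Lhx2 against 339 to 510.5 elsewhere and 47.8 and 57.2 of Dmrt3 against 14.0 to 25.7. Pax6 was lowest there, at 153 and 121 CPM, against 173 to 240 in the other RGC-like clusters. This cluster raised 4 of 7 IPC markers beside 10 of 12 RGC markers. The cluster led by Gm29260 and Plce1, with Top2a and Mki67 among its leading genes, had 406 and 368 CPM of Nr2f1, and the other clusters 224 to 326. It was G2/M-like in 57.5% and 69.0% of cells, while the Apoe-led cluster, at 70.6% and 76.4%, had the lowest Nr2f1 level (232 and 224 CPM). The clusters were made without these 7 genes, and the differences between clusters are given with no test.

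Among excitatory neuron-like clusters Lhx2 ranged from 11.5 and 30.4 CPM in the cluster led by Lrfn5 and Rgs6 to 415 and 385 in that led by Adamtsl3 and Unc5d and 419 and 337 in that led by Slit3 and Galntl6. Emx2 was at 57.2 and 50.9 CPM in the Slit3 and Galntl6 cluster and at 1.68 and 0.447 in the cluster led by Lrfn5 and Rgs6. Nr2f1 was at 292 and 659 CPM in the cluster led by Unc5d and Slc17a6, at 216 and 527 in that led by Tafa1 and Lrfn5 and at 82.4 and 60.8 in that led by Lrfn5 and Rgs6. In the former pair the libraries differed by more than in any RGC-like cluster. The Tafa1 and Lrfn5 cluster held 21 cells of replicate 2 and 87 of replicate 4, so that it is mostly 1 library.

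**Figure D3:**
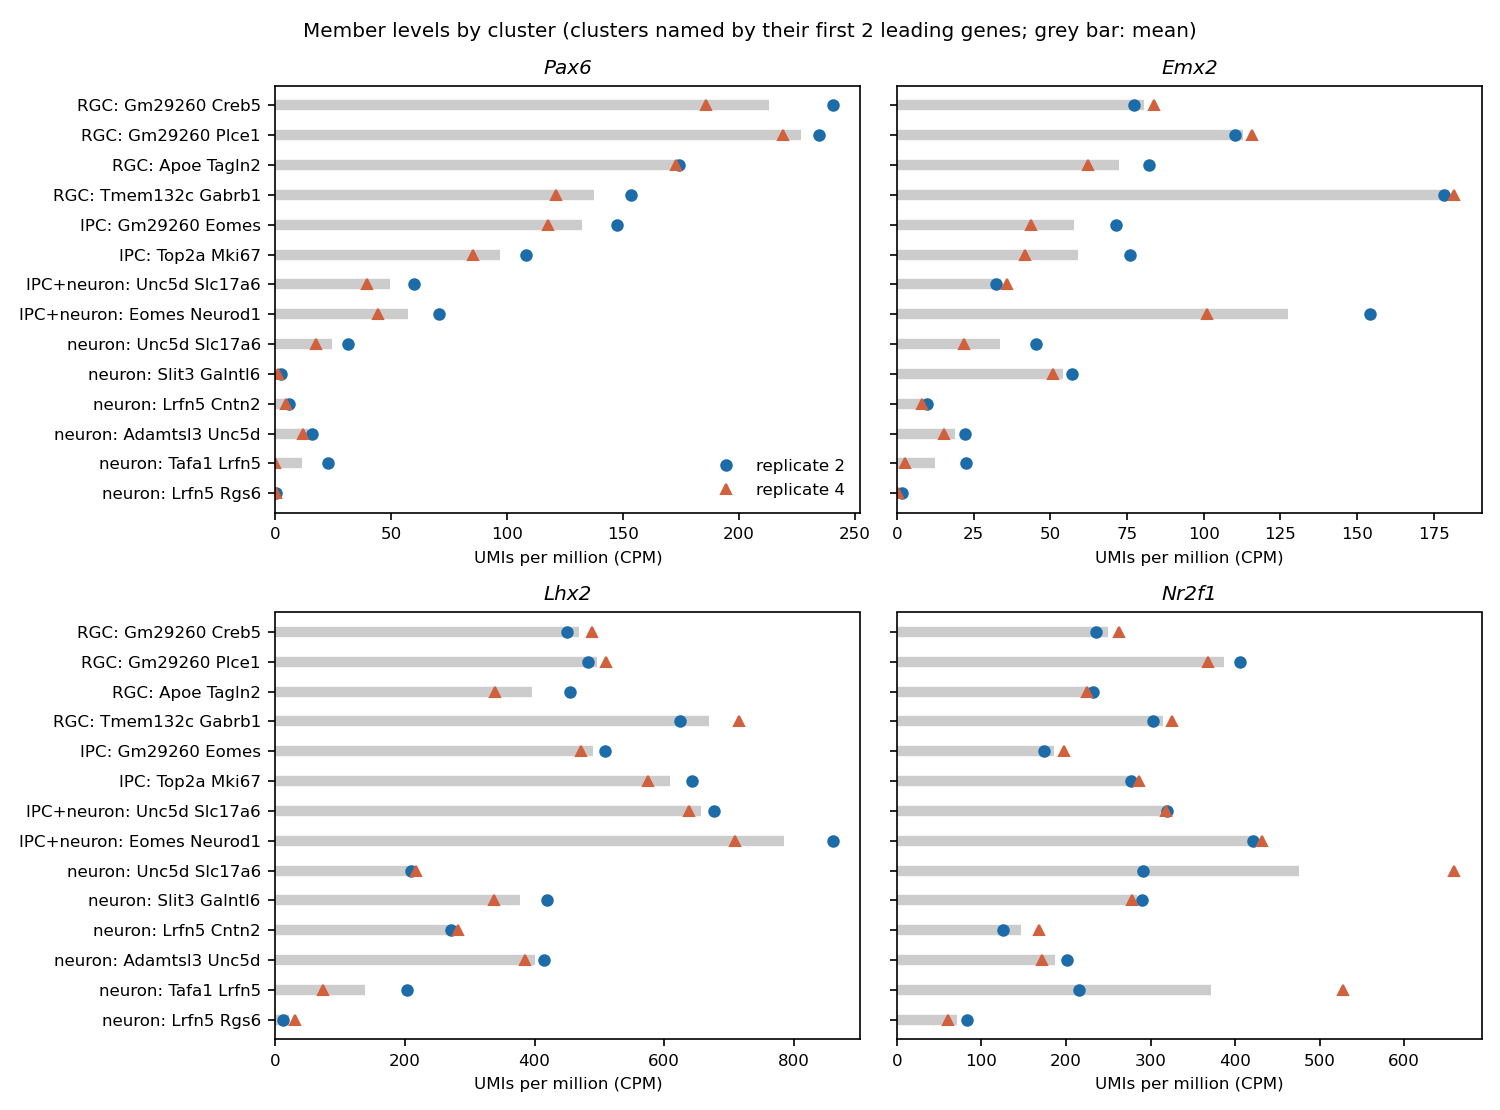
Levels of Pax6, Emx2, Lhx2 and Nr2f1 (x axis, CPM) in progenitor and excitatory neuron-like clusters, named by their leading genes and with 1 neuron cluster not shown, with circles for replicate 2, triangles for replicate 4 and grey bars for their mean. Emx2 stood highest in the RGC-like cluster led by Tmem132c and Gabrb1 (178 and 182 CPM), and Nr2f1 split by library in the neuron cluster led by Unc5d and Slc17a6 (292 and 659).

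Radial glia were then divided by cell cycle phase, scored from phase genes. Nr2f1 stood at 400 and 372 CPM in G2/M-like, 279 and 245 in S-like and 234 and 307 in G1-like RGC-like cells. Pax6 stood at 244 and 230 CPM in G2/M-like, 194 and 155 in S-like and 218 and 170 in G1-like cells. Dmrta2 was lowest in S-like cells in both libraries, at 53.7 and 54.3 CPM against 74.7 and 79.0 in G2/M-like and 73.6 and 81.9 in G1-like cells. For S-like against G2/M-like cells none of the 7 was called by edgeR, where 4.33% of 12618 genes were (546, with 2561 at an unadjusted p under 0.05). DESeq2's Wald test called 1 of the 7. The values closest to the threshold were those of Dmrta2 (-0.49 ± 0.11, adjusted p = 0.0553), Nr2f1 (-0.54 ± 0.14, adjusted p = 0.0833) and Pax6 (-0.42 ± 0.15, adjusted p = 0.178). With the library as a replicate block Pax6 (adjusted p = 0.0453) and Dmrta2 (adjusted p = 0.0470) were called, and 859 genes in all in place of 546. For S-like against G1-like cells Dmrta2 alone was called (-0.46 ± 0.12, adjusted p = 0.0356, edgeR), against 15.9% of all genes, and the call held in 2 of 4 alternatives.

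Neurog2, a proneural factor, marks radial glia that turn to neurogenesis. After thinning to 5000 UMIs, 71 and 112 RGC-like cells held a Neurog2 UMI and 178 and 303 held none. Emx1 stood at 135 and 139 CPM in Neurog2-positive and at 68.5 and 77.2 in Neurog2-negative cells. The log2 fold change was 0.89 ± 0.18 (adjusted p = 0.0135, edgeR), where 2.72% of 8701 genes were called. Dmrta2 (0.72 ± 0.20, adjusted p = 0.0709) and Lhx2 (0.43 ± 0.14, adjusted p = 0.112) did not pass. With the library as a block both were called (adjusted p = 0.0113 and 0.00192), and 662 genes in all in place of 237. Pax6 stood at 211 and 202 CPM in Neurog2-positive against 213 and 214 in Neurog2-negative cells (-0.06 ± 0.14). For Emx2 the libraries went opposite ways, with 64.8 and 125 CPM in positive and 117 and 94.4 in negative cells. DESeq2's Wald test did not call Emx1 (adjusted p = 0.286). Neurog2-positive cells were G1-like in 53.5% and 40.2% of cases and negative cells in 19.1% and 13.2%, and the part of this in the result was not tested.

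**Figure D4:**
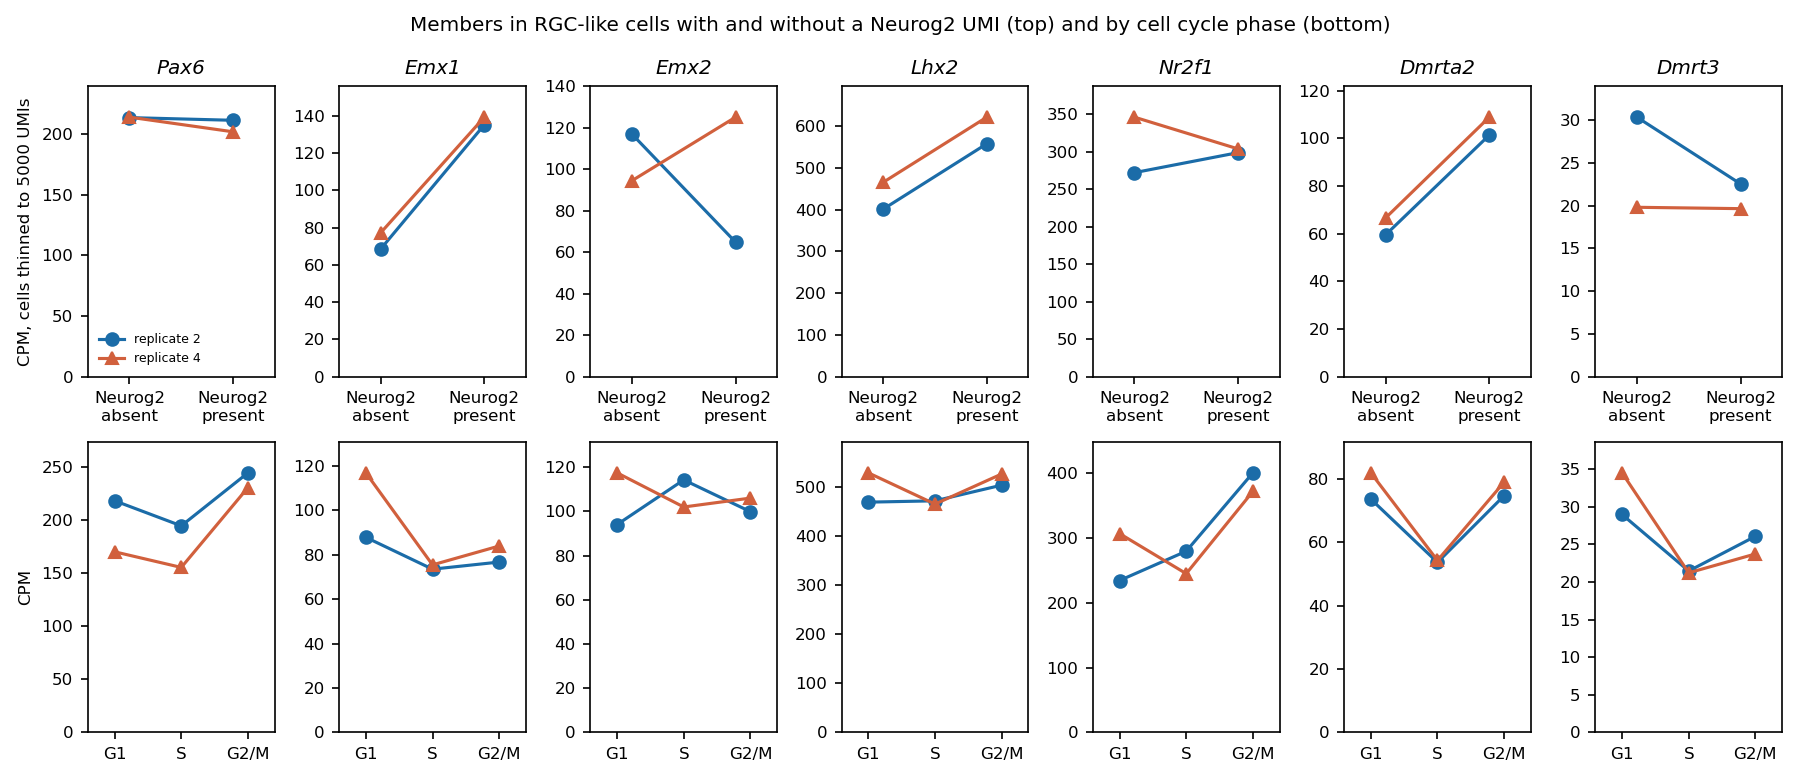
Levels of the 7 genes (y axis, CPM) in RGC-like cells without and with a Neurog2 UMI after thinning to 5000 UMIs (top) and by cell cycle phase (bottom), with circles for replicate 2 and triangles for replicate 4. Emx1 was higher with Neurog2 in both libraries (68.5 to 135 and 77.2 to 139 CPM), and Dmrta2 was lowest in S-like cells in both.

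Across single RGC-like cells the 7 genes gave 21 pairs, whose Pearson correlation of log-scaled UMIs (scaled to 10000 per cell) is given per library as a description over 266 and 446 cells that share a library. Of the pairs, 20 were positive in both libraries, with a median of 0.212 in replicate 2 and 0.144 in replicate 4. Each gene's median correlation with 8152 other genes lay between 0.007 and 0.078 in replicate 2 and between -0.002 and 0.054 in replicate 4. The highest pairs all held Lhx2, with Emx1 and Lhx2 at 0.41 and 0.37, Emx2 and Lhx2 at 0.42 and 0.34 and Lhx2 and Dmrta2 at 0.33 and 0.28. Lhx2 and Nr2f1 correlated at 0.39 in replicate 2 and at 0.19 in replicate 4. Emx1 and Nr2f1 stood at 0.02 and -0.02 and Pax6 and Dmrt3 at 0.02 and 0.02, values near 0.

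These correlations differed between ways of treating depth and cell state. The median over pairs was 0.194 over both libraries, 0.177 as a partial correlation given depth and cycle scores (17 pairs positive in both libraries), 0.156 given mitochondrial and ribosomal shares too (16 pairs) and 0.194 in cells with no Neurog2 or Eomes UMI (19 pairs). Thinned to 5000 UMIs per cell it was 0.0586, with 10 pairs positive in both libraries. Each gene's median correlation with the other genes, thinned too, lay between -0.006 and 0.013 in replicate 2 and between -0.002 and 0.008 in replicate 4. At that depth Emx1 and Lhx2 stood at 0.18 and 0.23, Emx2 and Lhx2 at 0.146 and 0.149 and Lhx2 and Dmrta2 at 0.028 and 0.12. The RGC-like cluster led by Apoe and Tagln2 (51 and 72 cells) held 9 and 12 cells with no UMI of any of the 7 genes, against at most 1 in each other RGC-like cluster and library. The 10th percentile of Malat1, a nuclear RNA, over its cells was 0 and 168 CPM, against 2522 to 4550 in the other clusters, and the part of such cells in the correlations was not tested. Without that cluster the median over pairs was 0.125 and 13 pairs were positive in both. Each gene's median correlation with other genes then lay between -0.017 and 0.030 in replicate 2 and between -0.008 and 0.043 in replicate 4. Pax6 and Lhx2 went from 0.29 and 0.19 to -0.007 and -0.010. Emx1 and Lhx2 stayed at 0.35 and 0.31 and Emx2 and Lhx2 at 0.36 and 0.31, while Lhx2 and Dmrta2 stood at 0.22 and 0.17.

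**Figure D5:**
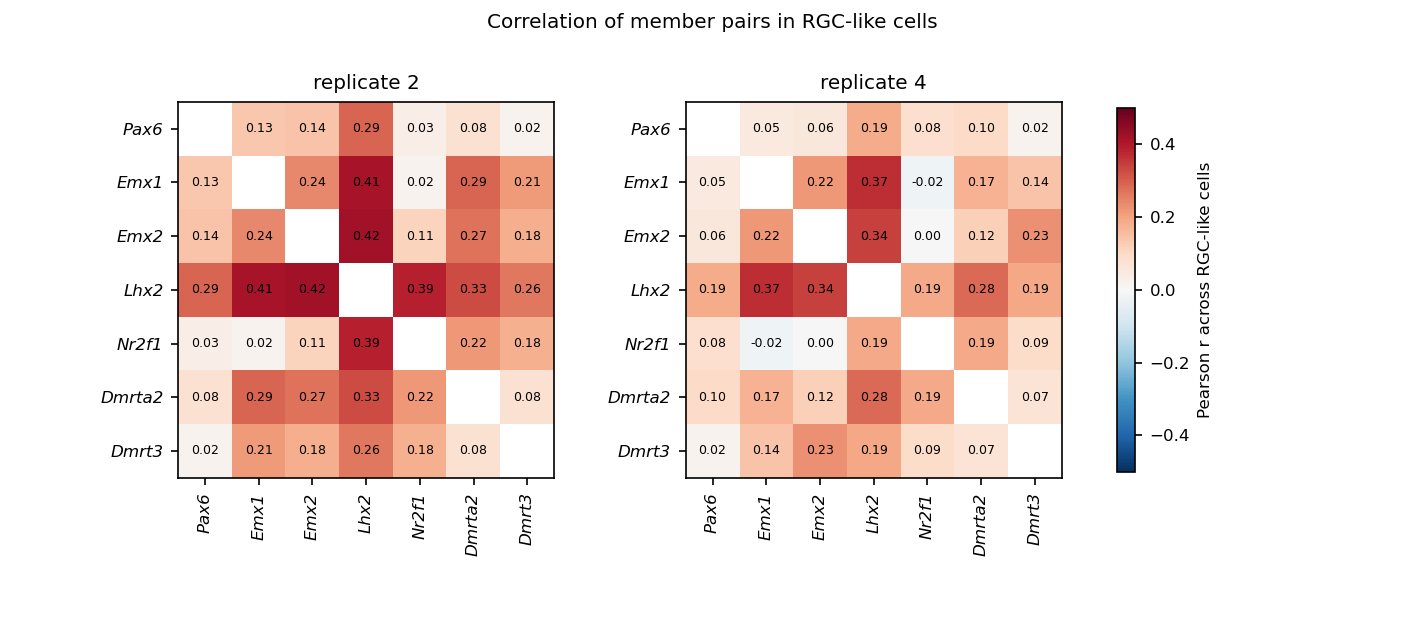
Pearson correlation (colour, from -0.5 to 0.5) of each pair of the 7 genes across RGC-like cells of replicate 2 (left, 266 cells) and replicate 4 (right, 446 cells). Lhx2 with Emx1 (0.41 and 0.37) and with Emx2 (0.42 and 0.34) were the highest pairs on average, and Emx1 with Nr2f1 (0.02 and -0.02) was near 0.

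The genes most like each member in radial glia, among 8152 found in at least 25% of RGC-like cells, were read the same way. Nr2f1 went with Fgfr3, an Fgf receptor high caudally in the cortex, at 0.63 and 0.51 (0.31 and 0.31 thinned), with Gm38604 at 0.68 and 0.56 and with A830082K12Rik, a noncoding gene beside it, at 0.59 and 0.54. It ran against Dct at -0.45 and -0.54, Tmem108 at -0.42 and -0.46 and Tagln2 at -0.39 and -0.39. Without the Apoe-led cluster, Nr2f1 and Fgfr3 stood at 0.64 and 0.51 and Nr2f1 and Dct at -0.48 and -0.61. Lhx2 went with Nfix (0.70 and 0.61), Tcf4 (0.61 and 0.56) and Nfib (0.64 and 0.49), transcription factors of maturing progenitors, and against Tmsb4x, Mest and Acadl (-0.39 to -0.51). Thinned, the 3 highest partners of Lhx2 stood at 0.38 to 0.44 and Acadl at -0.050 and -0.18. Without the Apoe-led cluster Nfix stood at 0.60 and 0.47, Tcf4 at 0.48 and 0.44 and Nfib at 0.50 and 0.25. The lowest partners of Lhx2 then stood at -0.27 and -0.27 for Tmsb4x, -0.50 and -0.40 for Mest and -0.26 and -0.27 for Acadl. Pax6 went with Cdon (0.49 and 0.43), a Hedgehog co-receptor, Pou3f3 (0.53 and 0.37) and Meis2 (0.51 and 0.38). Without the Apoe-led cluster these stood at 0.27 and 0.36 for Cdon, 0.40 and 0.23 for Pou3f3 and 0.26 and 0.20 for Meis2, and thinned at 0.15 to 0.29 over the 3 partners and both libraries. The lowest partners of Pax6, Lgals1, Cyba and Cotl1, moved from between -0.28 and -0.37 to between -0.02 and -0.09 without the Apoe-led cluster.

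Averaged over the libraries, the highest partners of the remaining 4 genes were weaker than those of Nr2f1, Lhx2 and Pax6. Without the Apoe-led cluster that order did not hold against Pax6 for Emx1, Emx2 and Dmrt3. There Emx1 and Nfix stood at 0.42 and 0.33, Emx2 and Nfix at 0.38 and 0.36 and Dmrt3 and Rmst at 0.45 and 0.30. Dmrta2 and Nfix stood at 0.30 and 0.18. Emx1, Emx2 and Dmrta2 each had Nfix and Lhx2 among their 3 highest. Emx1 and Nfix stood at 0.45 and 0.41, Emx2 and Nfix at 0.44 and 0.40 and Dmrta2 and Nfix at 0.38 and 0.30. Thinned to 5000 UMIs, Emx1 and Nfix stood at 0.23 and 0.21, Emx2 and Nfix at 0.11 and 0.25 and Dmrta2 and Nfix at 0.20 and 0.071. Dmrt3 went with Rmst (0.44 and 0.31), Ephb1 (0.43 and 0.31) and Cadps (0.41 and 0.31), which stood at 0.11 to 0.24 thinned. Among the lowest partners of Emx1 were Tmsb4x and Tox, those of Emx2 were Tmsb4x, Tox and Camk1d, those of Dmrta2 were Cyba, Tmsb4x and Myl6 and among those of Dmrt3 Ptn and Tox, from -0.11 to -0.35 in single libraries. Without the Apoe-led cluster those of Dmrta2 stood at -0.14 and -0.16 for Cyba, -0.13 and -0.025 for Tmsb4x and -0.047 and -0.085 for Myl6. Of the listed patterning genes, Emx1 ran against Rorb (-0.30 and -0.18) and Cdh6 (-0.29 and -0.19), area-marking genes of later neurons. Lhx2, Dmrt3, Emx2 and Dmrta2 ran against Cdh6 too (-0.01 to -0.28), while Pax6 (0.21 and 0.12) and Nr2f1 (0.01 and 0.20) did not. Rorb was negative with the same genes (-0.04 to -0.24), positive with Pax6 (0.16 and 0.05) and split by library with Nr2f1 (-0.07 and 0.22). Pax6 went with Gli3 (0.44 and 0.38) and Sfrp1 (0.43 and 0.37).

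Over the 18 sums of classes and libraries, which share libraries and differ in depth, the genes with the most similar pattern were found among 6379 genes by Pearson correlation of log2(CPM + 10). Emx2 was closest to Emx2os, its antisense neighbour (0.971), and Lhx2 to Gm11266 (0.977). Whether counting separated the strands is not given in the sources used here. Emx1 was closest to Ubxn2a (0.948), with Neurog2 at 0.922, Pax6 to Smarca5 (0.907), Nr2f1 to Fam172a (0.887) and Dmrt3 to Fam216a (0.917). Dmrta2 was closest to Emx2 (0.912), followed by Dmrt3 (0.898).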

How the data were processed

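The authors dissociated the dissected tissue of C57BL/6J mice with papain, prepared libraries with a 10x Genomics single cell kit that captures the 3′ ends of polyA RNA and, per the submitters' processing notes, used Cell Ranger 7.0.0 and mm10. The authors deposited UMI counts for each gene in each barcode, not normalized. Whether intronic reads were counted, and on which strand, is not given in the sources used here. The study loaded each sample on its own and gives a number of embryos for its E14.5 single-cell data as a whole, which the sources used here do not divide among these libraries.

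Kept barcodes had 1000 or more genes and no more than 10% of UMIs from mitochondrial genes. Scrublet in scanpy 1.11.5 called 12 (0.991%) and 48 (2.44%) doublets in replicates 2 and 4, which were removed. Cells were clustered without correction between libraries (2000 variable genes, 30 principal components, 20 neighbours, Leiden resolution 1, 25 clusters). The 61 listed genes (the 7 genes and 54 further patterning genes) were left out of the variable genes and the markers. To be raised, a marker had to exceed the median cluster by 1 or more in log2 (10 CPM added) and be present in 25% or more of the cluster, and 3 raised markers were required for a name. The naming rule was revised after the clusters had been seen: clusters that raised at least 50% of the markers of both IPCs and neurons, with a marker of each among their 10 leading genes, became a class of their own, and clusters of very low depth stayed without a name. The 4 GABAergic neuron-like clusters were clustered again (15 neighbours, 9 sub-clusters), and a sub-cluster with more markers of another sub-class than of its own among its 10 leading genes got no sub-class. Since class names were rebuilt, they can depart from those of the study.

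Sums of UMIs were taken for the 9 classes holding 10 or more cells in each of the libraries (18 sums) and fitted with edgeR 4.0.16's quasi-likelihood test (TMM, filterByExpr), in R 4.3.3, with Benjamini-Hochberg adjustment over all genes tested and a threshold of 0.05. All adjusted p-values are from edgeR unless DESeq2 (1.42.0) is named. An SE is the size of the log2 fold change over the root of its F statistic. The phases and the Neurog2 states were fitted apart, the latter on cells thinned to 5000 UMIs and without Neurog2. Cells were not used as replicates, and because no label says that the libraries are separate animals, p-values measure only the spread between these 2 libraries. Values that leave out 1 library have no test. Sums of 1 library share its cells' source, and deviations of classes within a library correlated at a median of 0.0856 over 36 class pairs, 2 of them below 0, so the library as a block was an alternative. Contrasts for CGE interneuron-like and striatal projection neuron-like cells were not run. No sub-cluster got the CGE name (1 of 18 and 19 cells raised 3 of 8 CGE markers but was led by markers of another sub-class), and replicate 2 held 1 striatal projection neuron-like cell. Correlations were Pearson's r within each library, with no p.

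All 7 genes are named whatever their result. The other patterning genes are given as counts per list, with at most 4 examples, the called genes of largest fold change with the same sign in both libraries. For correlations the 3 highest and 3 lowest partners are named, except for a few items not reported here. A few further values (Wnt8b, Wnt5a, Nr2f2, Rorb, Cdh6, Gli3, Sfrp1 and the single clusters) were chosen after they had been seen. The 7 genes and all lists were chosen with earlier results of these data known. In simulated data with 200 changed genes the fit recovered 45% of 2-fold and 86% of 4-fold changes between RGC-like and IPC-like cells (11252 genes). The figures were 58% and 88% for RGC-like against excitatory neuron-like cells (11262 genes), 50% and 88% for S-like against G2/M-like cells (12269 genes) and 52% and 86% for the Neurog2 states (8439 genes). Alternatives changed the cell filters, doublets, clustering, low-count filter, normalization, test, thinning and the cells of a class, and 4 of them and the Cajal-Retzius-like against RGC-like comparison were chosen after seeing the data.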

Additional observations from a re-analysis of the deposited data

How the results depend on the processing

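Of the values for single genes and comparisons under settings other than leaving out a library, 652 kept direction and side of the threshold, 28 lost the call, 35 gained it and 20 turned direction. The cause was not tested in any case. Between RGC-like and IPC-like cells 2213 genes were called with doublets kept (3486 as reported), and of the 7 genes 6 were called when only the compared classes were fitted and 1 with at least 500 genes, with doublets kept or at Leiden resolution 2. Nr2f1 turned to -0.023 there with IPC and neuron marker cells counted as IPC-like (adjusted p = 0.979) and Dmrt3 to -0.057 with at least 500 genes (adjusted p = 0.939). For IPC-like against excitatory neuron-like cells Nr2f1 turned to -0.054 with doublets kept and to -0.020 at Leiden resolution 0.5. For RGC-like against excitatory neuron-like cells Emx1 turned to -0.040 with doublets kept, -0.053 at Leiden resolution 0.5 and -0.017 with patterning genes kept for clustering.

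Between interneurons of MGE type and excitatory neurons 3 of 7 were called with at most 5% mitochondrial UMIs (Pax6 0.66) and 3 with classes from 1 part of the UMIs (Pax6 0.34, Dmrta2 0.86). Without a filter on low counts Dmrta2 turned to 0.0018 for RGC-like against hem or choroid plexus-like cells and Lhx2 to 0.013 for S-like against G1-like cells. For S-like against G2/M-like cells 1567 genes were called without that filter and 859 with the library as a replicate block (546 as reported), and of the 7 genes 1 by DESeq2's Wald test, 3 without the filter and 2 with the block. For S-like against G1-like cells 0 of 7 were called by DESeq2's test or without the filter, where edgeR called 1. For Neurog2-positive against Neurog2-negative cells 901 genes were called unthinned, 1135 with at least 2 Neurog2 UMIs, 76 by DESeq2's test, 519 without the filter and 662 with the block (237 as reported). Of the 7 genes 3 were called unthinned, 3 with at least 2 UMIs, 0 by DESeq2 and 3 with the block. Unthinned and with at least 2 UMIs, Pax6 turned to 0.14 and 0.14, Emx2 to 0.30 and 0.25, Nr2f1 to 0.19 and 0.11 and Dmrt3 to 0.57 and 0.45. With the library as a block, calls beyond those given beside the results did not change.

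The median correlation over 21 pairs (0.194) was 0.0792 with cells of 500 genes admitted, 0.0917 under the 5% mitochondrial limit, 0.135 with called doublets left in, 0.119 at Leiden resolution 0.5, 0.0772 at resolution 2, 0.118 with patterning genes kept, 0.0586 thinned and 0.125 without the Apoe-led cluster. Without replicate 2 it was 0.144, and without replicate 4 it was 0.212. The summed level of the 7 genes in RGC-like cells (1298 CPM) was 1336 without the Apoe-led cluster, 1342 with cells of 500 genes admitted, 1246 under the 5% limit, 1338 with called doublets left in, 1343 and 1318 at Leiden resolution 0.5 and 2 and 1233 with classes from 1 part of the UMIs.

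With 2 libraries, small classes limit the precision: Cajal-Retzius-like, hem or choroid plexus-like and MGE interneuron-like levels of single genes rest on few UMIs or none, and the fitted fold changes of genes at 0 depend on the prior count.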

Other observations

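Pax6 and Nr2f1 were also found in GABAergic neuron-like cells that got no sub-class. In the sub-cluster led by Foxp2, Ccnd2 and Meis2 (18 and 19 cells), where Pax6 was among the leading genes, it stood at 140 and 191 CPM, while Emx1 and Dmrt3 had no UMI in either library. In the same sub-cluster Nr2f1 stood at 13.7 CPM in replicate 2 and at 354 in replicate 4. The dividing sub-cluster had 316 CPM of Pax6 in replicate 2 and 36.0 in replicate 4, from 6 and 39 cells. Nr2f1 was at 550 and 708 CPM in the sub-cluster led by Pdzrn3 and Adarb2 (5 and 21 cells), and at 865 CPM in an MGE interneuron-like sub-cluster led by Sst and Npy, of 19 cells that came from replicate 4 alone. These cells are few, and the values have no test.

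Meningeal-like cells (18 and 30) held Nr2f1 at 80.8 and 165 CPM and the other 6 genes at 0 to 18.8 CPM. The striatal projection neuron-like cells of replicate 4 (67 cells) held Nr2f1 at 106 CPM and 27 UMIs of Pax6, with 1 UMI each of Emx1, Emx2 and Dmrta2.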
